A study of Mus musculus with 7 samples.

Results

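The genes described here are 37 markers of cell types outside the oligodendrocyte lineage: 20 genes by which microglia are recognised and 17 genes by which vascular endothelial cells are recognised. They were taken from a list of gene names, drawn up with earlier results of these data known, and all 37 were found by gene name among the 49315 genes counted. RNA of mouse oligodendroglia from brain was sequenced in bulk, in a control group of 3 libraries with the genotype Sox9-wt and in a group of 4 libraries with the genotype Sox9-tg, in which the transcription factor Sox9 was overexpressed. By the title of the series these were NG2 glia, the progenitors of oligodendrocytes, of early postnatal brain. The sources used here give no promoter or driver for the transgene, no age in days, no sex, no sorting step and no batch. The titles call the libraries biological replicates but do not tie them to animals or litters, so the p-values rest only on how far these libraries differed within a group, part of which may be technical.

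Microglia are the resident macrophages of the brain. They depend on signals through the receptor Csf1r, carry the fractalkine receptor Cx3cr1 and the ADP receptor P2ry12, and make the 3 chains of C1q, the protein that starts the classical complement cascade. Endothelial cells of the brain are joined by tight junctions built with claudin 5 (Cldn5) and adherens junctions built with VE-cadherin (Cdh5), respond to VEGF through Kdr and Flt1 and to angiopoietins through Tek, and carry transporters of the blood-brain barrier. Neither cell type arises from NG2 glia, so these genes are commonly read as a sign of admixed cells in a glial preparation. In bulk RNA, fewer cells of a type and less RNA per cell cannot be told apart.

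Promoters of members are shown first because both cell types are known for genes with binding sites of ETS factors, a family that includes PU.1 in microglia and ERG and FLI1 in endothelium. RefSeq gave a promoter for 26 of the 37 members on GRCm38.p6. In the 250 bases before the start, the ETS core AGGAAG (both strands counted) was found in 10 of 15 microglial and 8 of 11 endothelial genes that matched, or in 20 of 30 windows (66.7%), against 29.5% of all 32851 RefSeq windows of that length. The longer PU.1 form GAGGAAGT, which contains the ETS core, was in 3 of the 30 windows and 2.44% of all windows. Of those 3, 1 was of a microglial gene (C1qc) and 2 were of endothelial genes (Eng and Ly6c1). The core of SOX sites, ACAAT, was in 6 of the 30 and 27.7% of all. A match describes letters in a window and says nothing about binding. The 7 sequences below, each read 5′ to 3′ on the gene's own strand with ETS cores and ACAAT in capitals, are those of genes whose levels are described in detail below. They lie at chr4:136886201-136886450 (C1qb, minus strand), chr17:48346151-48346400 (Trem2, plus), chr3:59262986-59263235 (P2ry12, minus), chr2:32646345-32646594 (Eng, plus), chr5:147726012-147726261 (Flt1, minus), chr16:18776597-18776846 (Cldn5, plus) and chr5:75978456-75978705 (Kdr, minus).
C1qb: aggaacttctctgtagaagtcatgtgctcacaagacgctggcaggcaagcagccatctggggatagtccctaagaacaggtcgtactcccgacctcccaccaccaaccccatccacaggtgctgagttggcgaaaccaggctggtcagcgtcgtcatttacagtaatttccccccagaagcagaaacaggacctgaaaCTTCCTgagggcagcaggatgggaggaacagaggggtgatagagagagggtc
Trem2: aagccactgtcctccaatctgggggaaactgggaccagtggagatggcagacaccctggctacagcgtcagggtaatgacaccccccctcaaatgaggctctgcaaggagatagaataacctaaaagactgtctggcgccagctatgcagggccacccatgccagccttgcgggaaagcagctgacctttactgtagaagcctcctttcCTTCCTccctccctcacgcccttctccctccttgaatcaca
P2ry12: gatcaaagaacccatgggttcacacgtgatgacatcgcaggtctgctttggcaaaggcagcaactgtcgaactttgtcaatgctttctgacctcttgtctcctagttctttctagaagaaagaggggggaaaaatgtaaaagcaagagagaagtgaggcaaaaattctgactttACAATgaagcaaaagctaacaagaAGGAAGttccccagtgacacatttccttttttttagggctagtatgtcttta
Eng: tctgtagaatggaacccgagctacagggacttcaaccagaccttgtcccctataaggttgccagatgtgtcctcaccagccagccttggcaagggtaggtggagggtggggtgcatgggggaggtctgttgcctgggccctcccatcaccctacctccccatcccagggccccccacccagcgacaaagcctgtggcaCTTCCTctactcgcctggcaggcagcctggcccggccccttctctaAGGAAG
Flt1: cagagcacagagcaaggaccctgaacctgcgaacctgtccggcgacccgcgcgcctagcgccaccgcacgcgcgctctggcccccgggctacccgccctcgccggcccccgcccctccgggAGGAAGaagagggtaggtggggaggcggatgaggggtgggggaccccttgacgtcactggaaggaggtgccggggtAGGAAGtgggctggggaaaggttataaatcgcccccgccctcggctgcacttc
Cldn5: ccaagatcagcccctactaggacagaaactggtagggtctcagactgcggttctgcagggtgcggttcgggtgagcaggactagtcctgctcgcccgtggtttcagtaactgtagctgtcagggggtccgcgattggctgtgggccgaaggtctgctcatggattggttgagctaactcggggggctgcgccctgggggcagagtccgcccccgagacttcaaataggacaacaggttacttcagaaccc
Kdr: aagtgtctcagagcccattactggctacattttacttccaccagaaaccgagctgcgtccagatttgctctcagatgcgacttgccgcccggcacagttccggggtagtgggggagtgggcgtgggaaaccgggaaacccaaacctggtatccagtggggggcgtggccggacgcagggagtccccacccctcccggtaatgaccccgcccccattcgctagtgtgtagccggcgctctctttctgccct
The P2ry12 window is the only one of the 7 with ACAAT. The Eng and Flt1 windows hold 2 ETS cores each, and those of Cldn5 and Kdr hold neither motif.

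Each library held 15768472 to 30507326 counts, so that 3 counts of a gene corresponded to 0.0970 to 0.193 CPM (counts scaled to equal library size, on totals scaled with TMM factors of 0.965 to 1.05). Sox9 matched the labels: it was at 239, 353 and 293 CPM in control 1 to 3 and at 2207, 2741, 3597 and 3115 CPM in Sox9-tg 1 to 4. Markers of NG2 glia were abundant in all libraries, with summed levels of 8 genes of 2013 to 2540 CPM in control and 6864 to 10906 CPM in Sox9-tg, and Pdgfra at 409 to 453 CPM and 1303 to 1538 CPM. Astrocyte genes (6, summed 746 to 2284 CPM) and neuron genes (5, summed 454 to 2155 CPM) were present too. A pair of libraries stood apart for the members. Control 2 was the highest of the 7 libraries for 36 of the 37 members and for 17.3% of the 16616 genes tested, and Sox9-tg 2 was the highest of its group for 35 of 37 and for 31.8% of the genes tested. The tests on the members are therefore given with all libraries and, as a choice made after seeing the data, without these 2 libraries.

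All 20 microglial genes were detected in every library, and every one was highest in control 2 and, within its group, in Sox9-tg 2. Their summed level was 139.8, 1070 and 309 CPM in control 1 to 3 and 62.3, 429, 139.8 and 107.8 CPM in Sox9-tg 1 to 4. Control 2 thus lay 7.65-fold above control 1 and 3.46-fold above control 3, and Sox9-tg 2 lay 3.07-fold above the next Sox9-tg library. The groups overlapped: Sox9-tg 2 was above control 1 and control 3. As a share of all counts, the 20 genes made up 0.00623% (Sox9-tg 1) to 0.112% (control 2) of a library.

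**Figure D1:**
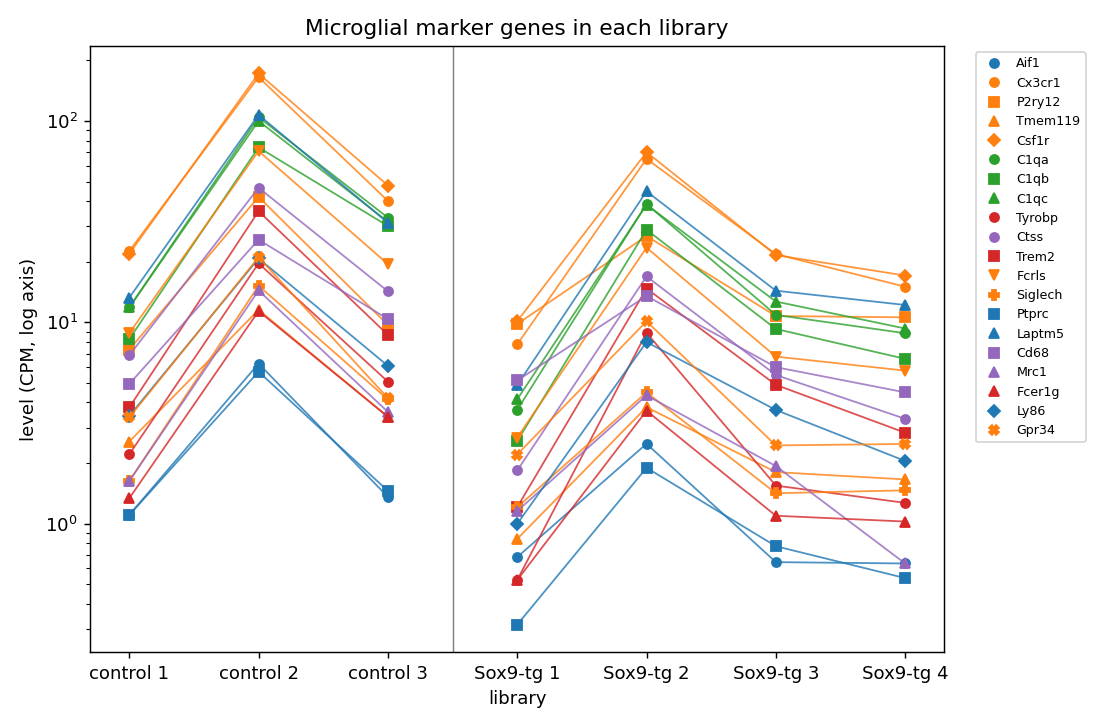
Level of each of the 20 microglial marker genes in CPM (log axis) in the 3 control and 4 Sox9-tg libraries, with lines joining the values of a gene and colours marking its role. All 20 lines peak at control 2 among the controls and at Sox9-tg 2 among the Sox9-tg libraries.

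Among the receptors that mark resting microglia, Csf1r, the receptor for CSF1 and IL-34, was at 21.9, 172 and 47.8 CPM in control and at 10.1, 70.0, 21.6 and 17.1 CPM in Sox9-tg. Cx3cr1 was at 22.6, 165 and 40.1 CPM and at 7.77, 64.9, 21.8 and 15.03 CPM. Both genes followed the same order of libraries, and their groups overlapped. Csf1r shares 873 exon bases with Hmgxb3 on the opposite strand, so that a part of its counts is uncertain where strand was not used. Tmem119, a microglial surface protein, was at 2.56, 11.5 and 3.40 CPM against 0.84, 3.79, 1.80 and 1.66 CPM, and Fcrls, an Fc receptor-like protein, was at 8.83, 71.0 and 19.5 CPM against 2.68, 23.5, 6.76 and 5.76 CPM. Siglech and Gpr34, a sialic acid-binding lectin and a lysophosphatidylserine receptor, ranged over 12.6-fold and 9.55-fold between libraries.

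P2ry12, by which microglial processes sense ADP and extend to sites of injury, varied least of these receptors. Its level was 7.32, 42.0 and 9.70 CPM in control and 9.82, 26.8, 10.8 and 10.6 CPM in Sox9-tg, so that all 4 Sox9-tg libraries were above control 1 and control 3. P2ry12 lies at chr3:59216272-59262871 (minus strand) within Med12l, a gene on the opposite strand with which it shares 9 exon bases.

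The 3 C1q chains, encoded side by side on chromosome 4 (C1qb, C1qc and C1qa between 136880129 and 136898803, minus strand), had the highest means of the microglial genes per kilobase of exon over the 7 libraries, at 85.8, 45.5 and 62.1 TPM (counts per kilobase, scaled to an equal sum per library) for C1qa, C1qc and C1qb. In Sox9-tg 1, however, Cd68 (11.5 TPM) and P2ry12 (10.8 TPM) were above C1qa (9.94 TPM), C1qb (6.65 TPM) and C1qc (6.04 TPM). C1qa was at 11.9, 105 and 33.1 CPM in control and at 3.68, 38.7, 10.9 and 8.83 CPM in Sox9-tg. While C1qa varied 28.5-fold between libraries, the ratio of C1qb to C1qa per kilobase stayed between 0.665 and 0.869 and that of C1qc to C1qa between 0.514 and 0.628. The chains thus kept nearly fixed proportions in libraries with very different amounts.

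Each phagocytic and lysosomal gene was likewise highest in control 2 and next highest in Sox9-tg 2, with some changes of order among the other libraries. Trem2, a lipid-sensing receptor, was at 3.78, 35.7 and 8.67 CPM in control and 1.21, 14.7, 4.90 and 2.83 CPM in Sox9-tg, and its signalling adaptor Tyrobp at 2.21, 19.6 and 5.08 CPM and 0.53, 8.88, 1.55 and 1.27 CPM. Tyrobp had the widest range of the 20 genes, 37.4-fold. Ctss, the lysosomal protease cathepsin S, was at 6.86, 46.6 and 14.3 CPM and 1.84, 16.9, 5.47 and 3.32 CPM. Cd68, a glycoprotein of lysosomes, varied only 5.73-fold, with 4.94, 25.7 and 10.4 CPM against 5.15, 13.5, 5.99 and 4.49 CPM. Laptm5, a lysosomal membrane protein of leukocytes, ranged over 22.0-fold, and the Fc receptor gamma chain Fcer1g and the TLR-associated Ly86 over 21.7-fold and 20.8-fold. Ptprc (CD45), the phosphatase on all leukocytes, was at 1.10, 5.69 and 1.46 CPM and 0.32, 1.90, 0.77 and 0.54 CPM. Aif1 (IBA1), an actin-binding protein of macrophages, was at 1.10, 6.24 and 1.36 CPM and 0.68, 2.49, 0.64 and 0.63 CPM. Mrc1 (CD206), a mannose receptor that is higher in perivascular macrophages than in microglia, was at 1.63, 14.4 and 3.59 CPM and 1.16, 4.34, 1.93 and 0.63 CPM.

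Between the groups, none of the 20 microglial genes passed edgeR's quasi-likelihood test at a Benjamini-Hochberg adjusted p under 0.05, where 13.5% of all genes tested passed it (7.69% higher and 5.86% lower in Sox9-tg). None passed with DESeq2 or limma-voom either. With the replicate number as a block, 17 of the 20 were called lower, where 9.08% of all genes tested were. No label ties same-numbered libraries to each other, and that fit is described at the end. All 20 had a negative log2 fold change, with a median of -1.54 and a range of -1.78 (Fcrls) to -0.45 (P2ry12), against a median of -0.01 over all genes tested. Their adjusted p ran from 0.151 to 0.698. Of the 20, 3 (Tmem119, Siglech and Ptprc) had an unadjusted p under 0.05, as did 27.0% of all genes tested. For none of the 20 were the groups free of overlap, which was the case for 24.5% of all genes tested. The intervals were wide: for C1qa the log2 fold change was -1.68 (SE 0.83, 95% confidence interval -3.56 to 0.19, edgeR adjusted p = 0.234), and for Cx3cr1 it was -1.47 (SE 0.79, interval -3.27 to 0.32, edgeR adjusted p = 0.276). P2ry12 had the smallest difference, -0.45 (SE 0.61, interval -1.83 to 0.93, edgeR adjusted p = 0.698).

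Without control 2 and Sox9-tg 2, again none of the 20 passed edgeR's test, where 12.1% of 16466 genes passed it (5.03% lower in Sox9-tg). The median of their log2 fold changes was -1.08 and 19 of 20 were negative. The standard errors shrank, 12 of the 20 had an unadjusted p under 0.05, and the smallest adjusted p was 0.0810 (Ctss, -1.57, SE 0.48, 5 libraries). The share of all genes at that unadjusted p was not counted for fits with libraries left out. P2ry12 was the exception to the negative values, with 0.30 (SE 0.19, edgeR adjusted p = 0.379). Leaving out Sox9-tg 2 alone brought 3 genes past the threshold as lower in Sox9-tg, where 5.28% of all genes tested were lower: Tyrobp (-3.01, edgeR adjusted p = 0.0482), Ctss (-2.68, 0.0448) and Fcrls (-2.71, 0.0490). Leaving out control 2 alone brought none past it (0 at an unadjusted p under 0.05), moved the median to -0.38 and gave P2ry12 and Gpr34 positive values of 0.76 and 0.18.

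**Figure D2:**
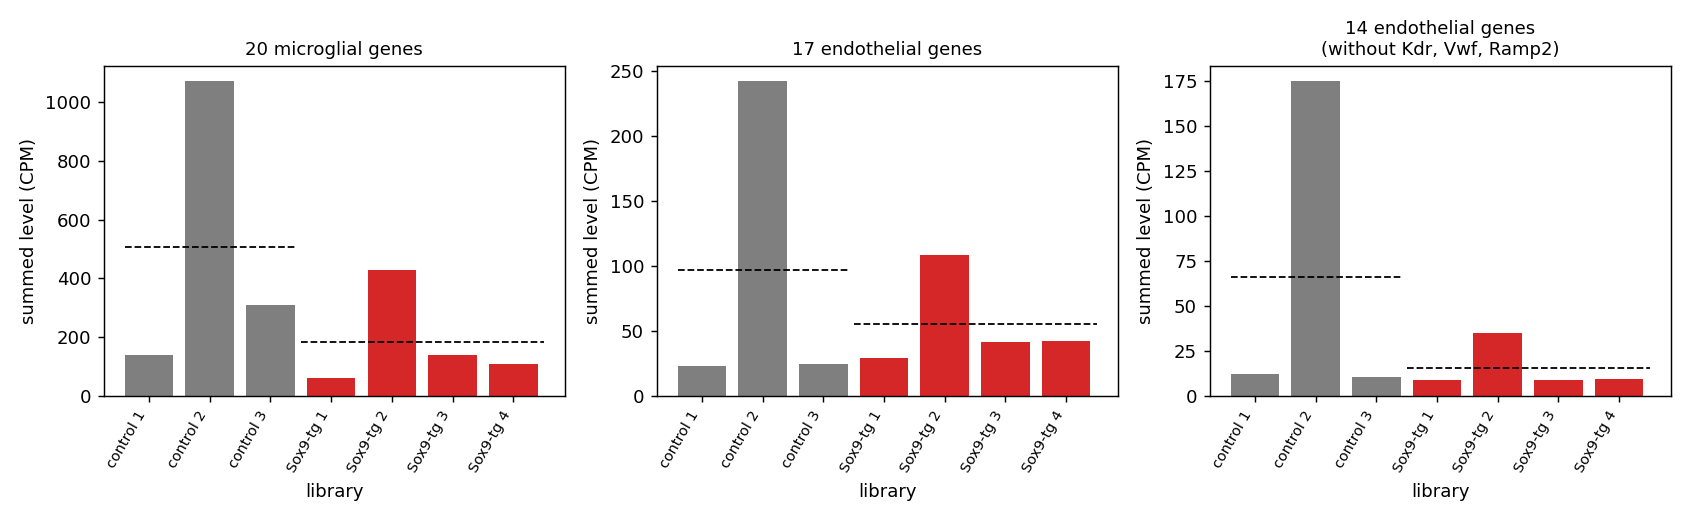
Summed level in CPM of the 20 microglial genes, the 17 endothelial genes, and the 14 endothelial genes other than Kdr, Vwf and Ramp2, in each library (bars, from 0; grey, control; red, Sox9-tg; dashed lines, group means). Control 2 is the highest bar in all panels, at 1070, 242 and 175 CPM.

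The endothelial genes summed to 16.8 to 213 TPM over the libraries, below the microglial genes (77.6 to 1478 TPM), and they too were concentrated in control 2. The 17 genes summed to 23.4, 242 and 24.8 CPM in control and to 29.4, 108, 41.7 and 42.4 CPM in Sox9-tg, so that control 2 was 10.3-fold and 9.75-fold above the other controls. Of the 17, 16 were highest in control 2, and Vwf was highest in Sox9-tg 2. Kdr, Vwf and Ramp2 differed from the others in pattern, as described below. Without them, a choice made after seeing the data, the other 14 genes summed to 12.3, 175 and 10.7 CPM in control and to 9.14, 35.3, 8.63 and 9.56 CPM in Sox9-tg, so that the 5 libraries not numbered 2 lay between 8.63 and 12.3 CPM.

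**Figure D3:**
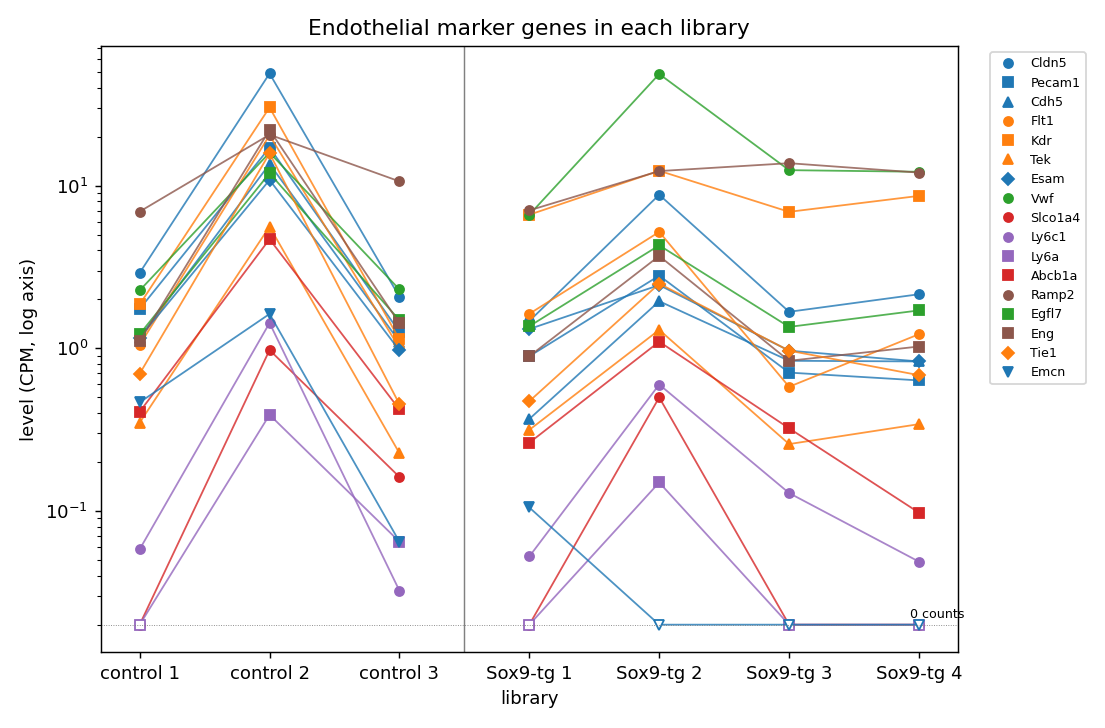
Level of each of the 17 endothelial marker genes in CPM (log axis) in the 3 control and 4 Sox9-tg libraries, with lines joining the values of a gene, colours marking its role, and open symbols on the dotted line marking 0 counts. Most lines peak at the libraries numbered 2, while Kdr and Vwf are higher in all Sox9-tg libraries than in control 1 and control 3.

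Among the junction genes, Cldn5 (chr16:18776847-18778262, plus strand) was at 2.91, 48.8 and 2.07 CPM in control and at 1.47, 8.78, 1.67 and 2.15 CPM in Sox9-tg. Cdh5 was at 1.16, 13.6 and 1.10 CPM and 0.37, 1.95, 0.84 and 0.83 CPM, and the adhesion molecule Pecam1 (CD31) at 1.74, 17.1 and 1.26 CPM and 0.89, 2.79, 0.71 and 0.63 CPM. For all 3 genes Sox9-tg 2 exceeded control 1 and control 3, and the remaining 3 Sox9-tg libraries reached no more than 2.15 CPM. Esam, an adhesion molecule of endothelial tight junctions, was at 1.16, 10.8 and 0.97 CPM and 1.31, 2.44, 0.97 and 0.83 CPM. Per kilobase of exon, Cldn5 had the highest mean of the 17 (20.1 TPM), which rested on control 2 (102 TPM). In the 5 libraries not numbered 2, Ramp2 (5.99 to 13.6 TPM) was above Cldn5 (2.92 to 6.18 TPM).

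The growth factor receptors did not all share one pattern. Flt1, a VEGF receptor, was at 1.05, 20.4 and 1.00 CPM in control and 1.63, 5.19, 0.58 and 1.22 CPM in Sox9-tg. Tie1, an orphan receptor that pairs with Tek, was at 0.70, 15.8 and 0.45 CPM and 0.47, 2.49, 0.97 and 0.68 CPM. Eng (endoglin), a co-receptor for TGF-beta family ligands, was at 1.10, 21.9 and 1.42 CPM and 0.89, 3.69, 0.84 and 1.02 CPM. These receptors peaked in control 2 and, far lower, in Sox9-tg 2. Kdr, the main signalling receptor for VEGF (chr5:75932827-75978458, minus strand), was at 1.86, 30.2 and 1.13 CPM in control and 6.62, 12.3, 6.89 and 8.64 CPM in Sox9-tg. All 4 Sox9-tg libraries lay above control 1 and control 3 and below control 2.

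Vwf, the von Willebrand factor stored in endothelial Weibel-Palade bodies (chr6:125546774-125686679, plus strand), was at 2.27, 15.9 and 2.30 CPM in control and 6.62, 48.5, 12.4 and 12.2 CPM in Sox9-tg. Within each group it was highest in the library numbered 2, and all 4 Sox9-tg libraries lay above control 1 and control 3. Egfl7, a protein secreted by endothelium, was at 1.22, 11.9 and 1.49 CPM and 1.37, 4.29, 1.35 and 1.71 CPM, and it shares 264 exon bases with Gm20532 on its own strand. Ramp2, which turns the receptor Calcrl into a receptor for adrenomedullin, varied least, at 6.92, 20.5 and 10.6 CPM in control and 7.04 (Sox9-tg 1) to 13.7 CPM (Sox9-tg 3) in Sox9-tg. Its annotation shares 1103 exon bases with Vps25 on the same strand, so the origin of its counts is uncertain.

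A total of 6 endothelial genes had too few counts to be tested. Tek, the angiopoietin receptor, was at 0.35, 5.59 and 0.23 CPM in control and 0.32, 1.30, 0.26 and 0.34 CPM in Sox9-tg, and the efflux pump Abcb1a had 7, 144 and 13 counts and 5, 22, 5 and 2 counts (it shares 553 exon bases with Gm42686 on the opposite strand). The barrier transporter Slco1a4 had 0, 30 and 5 counts in control and 0, 10, 0 and 0 counts in Sox9-tg. The surface proteins Ly6c1 and Ly6a, members of a family with near-identical copies whose counts are uncertain, had 1, 44 and 1 counts and 0, 12 and 2 counts in control, and 1, 12, 2 and 1 counts and 0, 3, 0 and 0 counts in Sox9-tg. Outside the libraries numbered 2, these transporters and surface proteins had at most 13 counts. Emcn (endomucin), a glycoprotein of venous and capillary endothelium, had another pattern. It had 8, 50 and 2 counts in control and 2, 0, 0 and 0 counts in Sox9-tg, and it was not raised in Sox9-tg 2, where 0 counts allow a level of up to 0.150 CPM.

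None of the 11 endothelial genes tested passed edgeR's test between the groups, where 13.5% of all genes tested passed it. Of the 11, 10 had a negative log2 fold change (median -1.79). The smallest adjusted p were 0.131 for Cdh5 (-2.40, SE 0.92) and 0.133 for Pecam1 (-2.41, SE 0.93). A total of 3 genes had an unadjusted p under 0.05, as did 27.0% of all genes tested. With limma-voom none passed. With the replicate number as a block, described at the end, 1 was called higher and 3 lower, where 9.63% and 9.08% of all genes tested were. The groups overlapped for all 17, while for 24.5% of all genes tested they did not. Vwf was the one positive value (1.53, SE 0.86, 95% confidence interval -0.43 to 3.49, edgeR adjusted p = 0.305), and Kdr stood at -0.37 (SE 0.92, interval -2.47 to 1.73, edgeR adjusted p = 0.846). Emcn, removed by the filter on low counts, was called lower in Sox9-tg by edgeR without that filter (adjusted p = 0.0410) and by DESeq2 (adjusted p = 0.0277). Over all genes, those fits called 863 and 1294 lower, and the shares were not counted. DESeq2 gave an adjusted p for 5 endothelial genes. Most counts of Emcn were in control 2 (50 counts), while control 3 and Sox9-tg 1 had 2 counts each.

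Without control 2 and Sox9-tg 2, Kdr and Vwf were higher in Sox9-tg. Kdr was raised by 2.34 on the log2 scale (SE 0.32, edgeR adjusted p = 0.00577) and Vwf by 2.20 (SE 0.34, edgeR adjusted p = 0.00875), where 7.06% of all genes tested were higher. The 9 others tested did not pass, with values from -0.98 (Pecam1, SE 0.41) to 0.33 (Tie1, SE 0.53, and Ramp2, SE 0.33), and the median of the 11 was 0.14. Cldn5 was at -0.47 (SE 0.36) and Esam at -0.02 (SE 0.42). Leaving out control 2 alone likewise gave Kdr as higher (2.55, edgeR adjusted p = 0.00455) and Vwf as higher (3.12, edgeR adjusted p = 0.0445), where 7.34% of all genes tested were higher, and it turned the sign of Cldn5, Flt1, Esam, Ramp2, Egfl7, Eng and Tie1 from negative to positive. Leaving out Sox9-tg 2 alone brought no endothelial gene past the threshold of edgeR's test. In that fit 6 had an unadjusted p under 0.05, a share not counted over all genes.

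**Figure D4:**
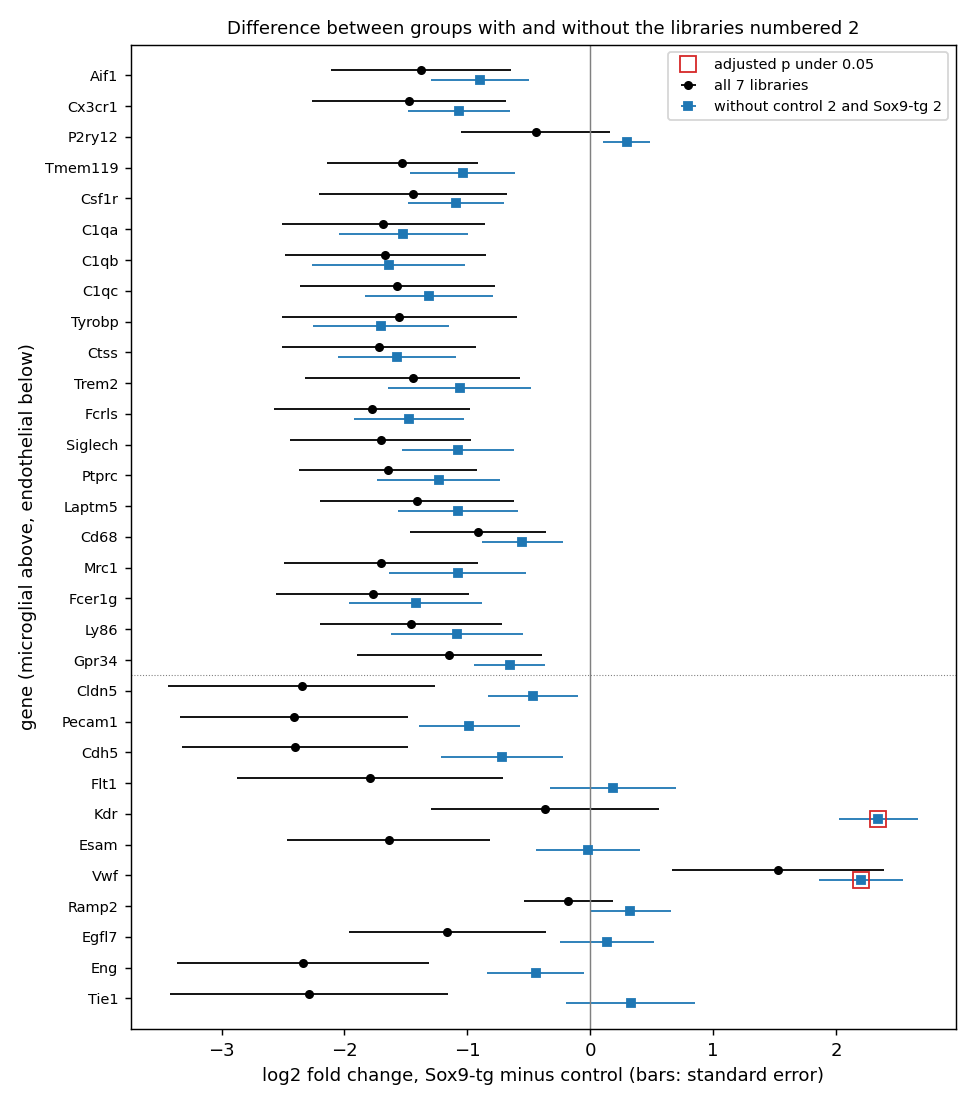
Log2 fold change (Sox9-tg minus control) with its standard error (bars) for the 31 members tested, with all 7 libraries (black) and without control 2 and Sox9-tg 2 (blue); red squares mark an adjusted p under 0.05. With all libraries no gene passed, and without those 2 only Kdr (2.34) and Vwf (2.20) did.

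Ratios between members of a cell type were formed per kilobase of exon, after the levels had been seen, and are given as a description. Csf1r over Cx3cr1 lay between 0.756 and 1.02 in the 7 libraries. P2ry12 over the summed C1q chains was 0.114, 0.0749 and 0.0502 in control and 0.479, 0.126, 0.165 and 0.215 in Sox9-tg, so that the groups did not overlap. Cd68 over the C1q chains was 0.156, 0.0929 and 0.109 in control and 0.509, 0.129, 0.186 and 0.184 in Sox9-tg, where Sox9-tg 2 fell within the control range. For comparison, the levels of 24.5% of all genes tested did not overlap between the groups. Of the 17 ratios to C1q, 2 (P2ry12 and Laptm5) were free of overlap, a count no higher than that share, and Laptm5 by a narrow margin (0.109 to 0.139 in control and 0.141 to 0.166 in Sox9-tg). Both P2ry12 and Cd68 were highest, relative to C1q, in Sox9-tg 1, the library with the least microglial RNA. This was not particular to them. Aif1, Cx3cr1, Tmem119, Csf1r, Siglech, Mrc1, Fcer1g and Gpr34 were also highest there relative to C1q, and the remaining ratios to C1q were not.

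In the endothelial genes, Kdr over the sum of Cldn5, Pecam1 and Cdh5 was 0.0789, 0.0827 and 0.0651 in control and 0.577, 0.192, 0.510 and 0.527 in Sox9-tg. In control 2, which had the most endothelial RNA, this ratio was close to that of the other controls. Vwf over the same sum was 0.0541, 0.0245 and 0.0742 in control and 0.325, 0.424, 0.517 and 0.417 in Sox9-tg. These ratios separated the groups in all 7 libraries, including the pair numbered 2. Of 14 endothelial ratios, 3 were free of overlap (Kdr, Vwf and Tek), again no higher than the 24.5% of genes whose levels did not overlap, and Eng and Tie1 over the same sum were not.

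**Figure D5:**
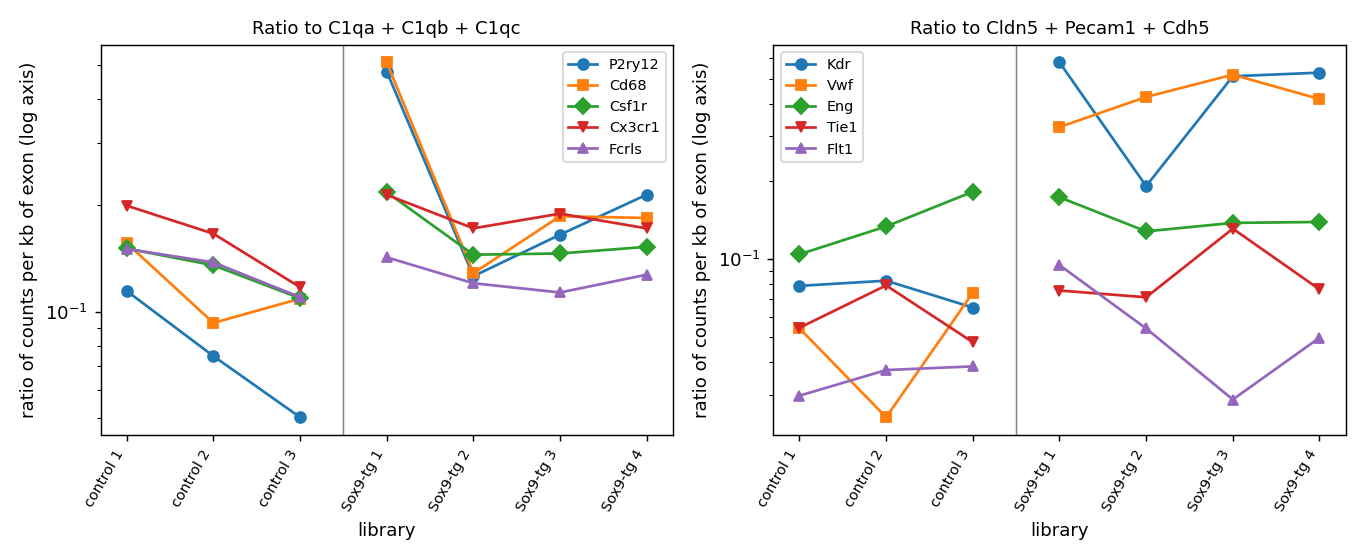
Ratio of counts per kilobase of exon (log axis) in each library, on the left for microglial genes over the 3 C1q chains and on the right for endothelial genes over Cldn5, Pecam1 and Cdh5. P2ry12 on the left and Kdr and Vwf on the right are higher in all 4 Sox9-tg libraries than in all 3 controls.

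Other genes of the same cell types were read from lists. Of 28 further microglial and macrophage genes, all tested, 1 passed edgeR's test, where 13.5% of all genes tested passed it. This was Olfml3, a secreted matrix protein of microglia, with 6.63, 23.9 and 7.34 CPM in control and 2.47, 4.84, 3.16 and 2.78 CPM in Sox9-tg (-1.93, SE 0.47, edgeR adjusted p = 0.0271). That call was lost without control 2 (adjusted p = 0.0525), Sox9-tg 1 (0.0507), Sox9-tg 3 (0.0730) or Sox9-tg 4 (0.0750), and with limma-voom (0.0657). The median of the 28 was -1.46, and all 28 were highest in control 2. Without both libraries numbered 2, 4 of 27 were lower: Olfml3, Inpp5d (-1.50, edgeR adjusted p = 0.0155), Rgs10 (-1.54, 0.0146) and Ikzf1, the last named after its value was seen, and Dock2 was higher, also named after its value was seen. In that fit 5.03% of all genes tested were lower and 7.06% higher. Inpp5d and Rgs10, a lipid phosphatase and a regulator of G-protein signalling, had values with all libraries of -1.53 and -1.40 (edgeR adjusted p = 0.0815 and 0.0854). Sall1, a transcription factor of microglia also made by other neural cells, did not follow the members: it was at 154, 155 and 136 CPM in control and 124, 71.1, 112 and 111 CPM in Sox9-tg (-0.51, edgeR adjusted p = 0.108), lowest in Sox9-tg 2.

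Perivascular macrophage genes were scarce except Stab1, a scavenger receptor, which was at 8.08, 57.5 and 20.7 CPM in control and 3.83, 25.1, 3.80 and 3.66 CPM in Sox9-tg. Its log2 fold change was -1.66 (edgeR adjusted p = 0.240). Without the libraries numbered 2 it was lower, by -1.93 (edgeR adjusted p = 0.0185), where 5.03% of all genes tested were lower. Of the 8 genes, 3 could be tested and none passed with all libraries (none at an unadjusted p under 0.05). Pf4, Lyve1, Cbr2 and Ms4a7 did not exceed 1.37 CPM in any library.

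Of 35 further endothelial genes, 28 could be tested, and 2 rose and 3 fell, with a median of -1.31. Over all genes tested, 7.69% were higher and 5.86% lower in Sox9-tg. Dll4, a Notch ligand of arterial and sprouting endothelium, fell from 16.2, 24.2 and 20.8 CPM to 1.58, 1.55, 1.55 and 2.10 CPM (-3.58, SE 0.21, edgeR adjusted p = 0.000118). Its level was not raised in Sox9-tg 2. Mfsd2a, a lipid transporter of the blood-brain barrier, rose from 28.0, 57.7 and 47.1 CPM to 101, 141, 143 and 155 CPM (1.61, edgeR adjusted p = 0.00413), and the transcription factor Ets1 rose from 51.5, 51.1 and 44.3 CPM to 133, 81.0, 125 and 111 CPM (1.20, edgeR adjusted p = 0.00304). For all 3 genes the groups did not overlap, as for 24.5% of all genes tested. In control 1 and control 3 these 3 genes were at 16.2 to 51.5 CPM each. The 14 endothelial members other than Kdr, Vwf and Ramp2 summed to 12.3 and 10.7 CPM there. That sum was 175 CPM in control 2, where Dll4, Mfsd2a and Ets1 were at 24.2, 57.7 and 51.1 CPM. Which cells made the RNA of these 3 genes was not tested. Sox7, a transcription factor of endothelium, was lower (-2.54, edgeR adjusted p = 0.0249), which was lost without control 2 (adjusted p = 0.0860), control 3 (0.0640), Sox9-tg 3 (0.0719) or both libraries numbered 2 (0.0718). The barrier transporter Slco1c1, named after its value was seen, was lower (-1.36, edgeR adjusted p = 0.0372), and this call was lost without control 2 (0.108), control 3 (0.0772), Sox9-tg 2 (0.0501), Sox9-tg 3 (0.0915), Sox9-tg 4 (0.0642) or both libraries numbered 2 (0.102). Without both, 4 of 26 were higher (Mfsd2a, Ets1, Itm2a and Clec14a) and 2 lower (Dll4 and Fli1), and the median was 0.13. In that fit 7.06% of all genes tested were higher and 5.03% lower. Itm2a, Clec14a and Fli1 are named after their values were seen.

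Of 20 ligands and partners of the members' receptors found in the files, 18 could be tested, and 4 rose and 1 fell. Among all genes tested, 7.69% were higher and 5.86% lower in Sox9-tg. Cd200, which quiets microglia through its receptor, rose from 37.4, 40.9 and 35.6 CPM to 148, 125, 183 and 161 CPM (2.02, SE 0.15, edgeR adjusted p = 0.000190). Cx3cl1, the ligand of Cx3cr1, rose from 9.42, 18.0 and 13.7 CPM to 26.1, 24.6, 29.7 and 30.5 CPM (1.01, SE 0.21, edgeR adjusted p = 0.0150), a call lost without control 3 (adjusted p = 0.0705). Calcrl, the partner of Ramp2, rose from 13.5, 20.7 and 17.5 CPM to 40.1, 44.1, 43.5 and 44.9 CPM (1.32, SE 0.15, edgeR adjusted p = 0.00115). The VEGF co-receptor Nrp1 fell (-0.94, SE 0.16, edgeR adjusted p = 0.00628). Its relative Nrp2, named after its value was seen, rose (0.93, edgeR adjusted p = 0.0259), which was lost without control 1 (adjusted p = 0.0853), control 2 (0.0503), control 3 (0.0846) or Sox9-tg 3 (0.0533). Csf1, a ligand of Csf1r, did not pass (-0.42, edgeR adjusted p = 0.494), nor did Vegfa, the ligand of Kdr (-0.34, edgeR adjusted p = 0.529). All 5 calls also passed without both libraries numbered 2, where 7.06% of all genes tested were higher and 5.03% lower.

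Markers of further cell types were read beside these results, and their part in them was not tested. Of all genes tested, 7.69% were higher and 5.86% lower in Sox9-tg. The 14 mural cell genes summed to 139, 274 and 138 CPM in control and 131, 164, 124 and 154 CPM in Sox9-tg. Of the 10 tested, 1 rose, Mcam (1.69, edgeR adjusted p = 0.0147, and 0.0640 without control 3). The 11 fibroblast and meningeal genes summed to 21.8, 65.7 and 25.6 CPM and 17.3, 32.9, 14.1 and 18.8 CPM, again with the libraries numbered 2 highest. Of the 6 tested, Islr fell (-1.83, edgeR adjusted p = 0.000933), and Lum, at 0, 0.325 and 0.0323 CPM in control and 1.37, 6.88, 2.83 and 2.34 CPM in Sox9-tg, rose (edgeR adjusted p = 0.0150, and 0.0690 without control 3). The 14 blood cell genes summed to 49.9, 79.1 and 18.0 CPM and 15.4, 29.3, 9.08 and 5.76 CPM, most of it from globin genes. The T cell marker Cd3e was at 0 in 6 libraries and the granulocyte markers S100a8, S100a9, Camp and Ngp were at most 0.315 CPM. The 6 astrocyte genes, all highest in control 2, summed to 1132, 2284 and 1661 CPM and 746, 934, 903 and 1050 CPM, without a peak of the sum in Sox9-tg 2, although Gfap was highest of that group there. Of these 6, 3 were called lower in Sox9-tg (Aqp4, Slc1a2 and Gja1). The call of Gja1 was lost without control 2 (edgeR adjusted p = 0.0819) or both libraries numbered 2 (0.128), among other settings. The 5 neuron genes summed to 2155, 1237 and 1511 CPM and 1069, 454, 794 and 777 CPM. That sum, most of it from Tubb3, was lowest within each group in the library numbered 2, but Rbfox3 was highest there in each group (control 2, 46.2 CPM, and Sox9-tg 2, 18.5 CPM). Of the 5 neuron genes, 3 were called lower in Sox9-tg (Rbfox3, Syt1 and Stmn2). All 8 NG2 glia genes were called higher, though the calls of Olig1 (edgeR adjusted p = 0.0590) and Olig2 (0.0605) were lost without control 3. Without both libraries numbered 2, Mcam, Lum and Islr were called in the same direction, and Foxc1, named after its value was seen, was higher. Newly called lower were Hba-a1 (-1.87, edgeR adjusted p = 0.0398, against 0.0564 with all libraries) and Tubb3 (-1.08, edgeR adjusted p = 0.0253, against 0.0781). In that fit 7.06% of all genes tested were higher and 5.03% lower.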

How the data were processed

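Total RNA of 7 libraries was sequenced. The authors deposited a table of raw read counts per Ensembl gene for each library: the values are whole numbers with different totals (15768472 to 30507326). The submitters' processing notes name the build GRCm38 and the tools STAR 2.5.2b, Trimmomatic 0.36, Subread 1.5.2 with featureCounts, DESeq and DESeq2. Not given in the sources used here are their settings, the annotation, whether strand was used and how multi-mapping reads were counted.

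Groups came from the titles and genotypes. Genes were kept by edgeR's filterByExpr (minimum count 10, total 15), which left 16616, scaled with TMM factors and tested in R 4.3.3 with the quasi-likelihood F test of edgeR 4.0.16, two-sided, with group as the only term and Benjamini-Hochberg adjustment over all genes tested. The biological coefficient of variation was 0.265. Standard errors of edgeR values were calculated back from the test, as the absolute log2 fold change over the square root of its F statistic. The confidence intervals were built from these standard errors. Exon lengths (for TPM and ratios), coordinates and overlaps came from GENCODE mouse release M21, which had 48970 of the gene IDs, and promoters from RefSeq on GRCm38.p6. Libraries 3 and 4 of Sox9-tg, the most alike, differed 5.10 times more than sampling noise (chi-square per gene). The other pairs within a group differed 43.8 to 92.0 times more. As libraries 3 and 4 differed by more than noise, all libraries were kept as separate samples. Whether those 2 share an animal or a preparation is not given. If they do, the p-values treat them as more independent than they are. The steps were tested on simulated counts.

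The members and lists were chosen with earlier results of these data known. Named genes were all 37 members, Sox9, and from each list up to 4 genes with the smallest p, plus all called genes where 4 or fewer were called. Others fall outside this rule and count as chosen after their values were seen, and most are marked so or listed here. Not marked where they appear are Csf1, Vegfa, Gfap, Olig1, Olig2, Pf4, Lyve1, Cbr2, Ms4a7, Cd3e, S100a8, S100a9, Camp and Ngp. Alternatives were RLE, upper-quartile or no scaling factors, no filter, robust empirical Bayes, DESeq2 (1.42.0), limma-voom (limma 3.58.1), a replicate block and leaving out each library. Leaving out both libraries numbered 2 was added after seeing the data.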

Additional observations from a re-analysis of the deposited data

Results flagged for a closer look

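Within the Sox9-tg group, a value counted as far from the others where its gap to the nearest, as a share of the group's range, exceeded Dixon's critical value, which chance gives in about 1 in 20 groups. It was applied to 72 groups of 4 libraries, and 16 values passed. The 72 groups were genes and sums measured in the same 4 libraries, many rising and falling together. They are not independent, so 16 of 72 cannot be set against 1 in 20. In 15 of them the library far above the others was Sox9-tg 2. Among microglial genes these were Aif1 at 2.49 CPM, P2ry12 at 26.8 CPM, Tyrobp at 8.88 CPM, Siglech at 4.49 CPM, Cd68 at 13.5 CPM and Gpr34 at 10.1 CPM. Among endothelial genes they were Cldn5 at 8.78 CPM, Pecam1 at 2.79 CPM, Vwf at 48.5 CPM, Egfl7 at 4.29 CPM and Eng at 3.69 CPM, as well as the summed level of the 17 genes at 108 CPM. Further genes of the same cell types were Inpp5d at 8.48 CPM, Rgs10 at 6.04 CPM and Stab1 at 25.1 CPM. The remaining value was Dll4 at 2.10 CPM in Sox9-tg 4, against 1.55 to 1.58 CPM in the other Sox9-tg libraries. The control group, with 3 libraries, was too small for this measure.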

How the results depend on the processing

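Depth limited the 6 endothelial genes that could not be tested, and the spread between libraries limited the others. With all 7 libraries, 2251 genes were called. Leaving out 1 library gave 965 (without control 3) to 3169 (without Sox9-tg 1) calls, with 1261 without control 1, 1342 without Sox9-tg 3 and 1356 without Sox9-tg 4. Calls were 1278 higher and 973 lower with TMM, 1113 and 1112 with upper-quartile factors, and 1117 and 1087 with total counts alone. With all libraries, the count of microglial genes called was 0, except for 17 under the replicate block described below. It was 0 to 3 with 1 library left out. The count of endothelial genes called was 0 to 2 with 1 library left out, 2 without both libraries numbered 2 and 4 under the replicate block. It was 1 with no filter and 1 with DESeq2 (which gave an adjusted p for 5 of them). The summed microglial log2 ratio, -1.46, ran from -2.29 to -0.28 with 1 library left out. The summed endothelial log2 ratio, -0.80, ran from -1.35 to 1.20 (without control 2) and was 0.65 without both libraries numbered 2. With 1 library left out, the log2 fold change turned to positive for 11 genes, always without control 2, with ranges of -0.92 to 0.76 for P2ry12, -1.997 to 0.18 for Gpr34, -3.34 to 0.50 for Cldn5, -2.69 to 1.07 for Flt1, -0.91 to 2.55 for Kdr, -2.12 to 0.38 for Esam, -0.45 to 0.36 for Ramp2, -1.72 to 0.68 for Egfl7, -3.14 to 0.34 for Eng, -2.997 to 1.02 for Tie1 and -1.32 to 0.34 for Alas2. Alas2 also turned without Sox9-tg 3 (0.079) or Sox9-tg 4 (0.069), and Kdr with limma-voom (0.94). Without both libraries numbered 2 it turned for P2ry12 (0.30), Flt1 (0.18), Kdr (2.34), Ramp2 (0.33), Egfl7 (0.14), Tie1 (0.33) and Alas2 (0.37). The cause of these shifts was not tested. Of the other single-gene values, 1112 kept their direction and side of the threshold, 57 newly passed it and 30 no longer did.

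The replicate numbers are shared by the groups, but nothing ties same-numbered libraries to each other. Sox9-tg 4 has no control of the same number, so a block by number leaves it without a partner. Deviations of same-numbered libraries from their group means correlated at 0.317 (number 1), 0.613 (number 2) and 0.0703 (number 3), and control 3 and Sox9-tg 3 correlated best with another number. With the replicate number as a block, 3109 genes were called, 17 of 20 microglial genes were called lower (9.08% of all genes were), and 4 endothelial genes were called: Vwf higher (1.86, edgeR adjusted p = 0.000458) and Cldn5, Pecam1 and Cdh5 lower (9.63% of all genes were higher). Kdr turned to 0.87 under the block.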
